A study of Camellia sinensis with 3 samples.

Results

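csn-smR2845 is a small RNA of the tea plant (*Camellia sinensis*) that was predicted in the study and not matched to a known miRNA family. The degradome data listed 66 cleavage targets for it, out of 763 target entries for all 53 small RNAs, and each of the 66 was a different EST (expressed sequence tag, a single-pass read of a cloned transcript). The targets were taken by the name of the small RNA and split by the alignment score, which the table gives for the pairing of the small RNA with its target, and csn-smR2845 itself was chosen by the low scores of its targets. The score is therefore described here and was not tested. A site also had to hold at least 1 read in a library to be listed at all.

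The cold (+C) degradome library was made from young leaves of plants kept at 4 °C, and the control (-C) library from plants kept at 28 °C. Both sets of plants had been grown for 20 days and were harvested 6 times from 1 to 48 h. The labels give both the cold-tolerant cultivar 'Yingshuang' and the cold-sensitive cultivar 'Baiye 1' for each library and no harvest time of its own, so that neither times nor cultivars can be told apart. There was 1 library per group, and no spread between replicates could be measured. The control library held 1.37 times as many sequenced signatures as the cold one.

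Plant miRNAs are cut by Dicer-like enzymes from hairpins of their own transcripts, are loaded into Argonaute proteins and guide the cutting of messenger RNAs to which they pair. The cut falls in the middle of the paired stretch and leaves a 3′ fragment whose first base is fixed, and degradome sequencing collects such fragment ends. Small interfering RNAs use the same machinery, but they are cut from double-stranded RNA and match the transcripts they came from along their whole length.

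All 66 targets paired with csn-smR2845 over exactly 17 nt, and in all 66 the cut lay opposite base 10 of the small RNA. The count runs from its 5′ end, which was taken to pair with the last base of the span. Of the other predicted targets 172 of 183 were cut opposite base 10, and of the conserved ones 429 of 514. The authors' pipeline kept alignments by this position, so it is no independent sign of slicing. Among the targets of predicted small RNAs 75 alignments spanned 17 nt, and 88.0% of these belonged to csn-smR2845. The spans of the other predicted small RNAs ran between 15 and 25 nt, with a median of 21 nt. Short spans were common among the conserved families, where 351 of 514 targets paired over 17 nt or less.

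A span of 17 nt was shorter than any listed predicted miRNA. The table of the mixed small RNA library gave lengths of 19 to 25 nt for its 98 entries, and csn-smR2845 was not among these entries. It covered 20 of the 40 predicted small RNAs with targets, and for these the pairing span lay between 2 nt below and 1 nt above a listed mature length, equal to it in 56 of 83 targets. None of those 20 had a span of 18 nt or less, whereas 11 of the 20 with no listed length did, csn-smR2845 included. Spans of the conserved families were often shorter than the mature lengths that the study lists for them, so a short span need not mean a short small RNA. The length and the sequence of csn-smR2845 itself were not analysed here, nor were the sequences of its target ESTs.

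The pairing was free of penalties in 55 of the 66 targets, which had an alignment score of 0 (83.3%). Since csn-smR2845 was chosen by these scores, its share is a description only. The other predicted small RNAs had a score of 0 in 15 of 183 targets (8.20%), and the conserved families in 0 of 514, which allows a share of up to 0.584%. csn-smR2845 thus held 78.6% of the 70 penalty-free targets in the data, although 11 of its own targets did not pair perfectly. Outside the score of 0, 1 EST of csn-smR2845 had a score of 1 and 10 had a score of 2, while the median score was 4 both for the other predicted and for the conserved targets.

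**Figure D1:**
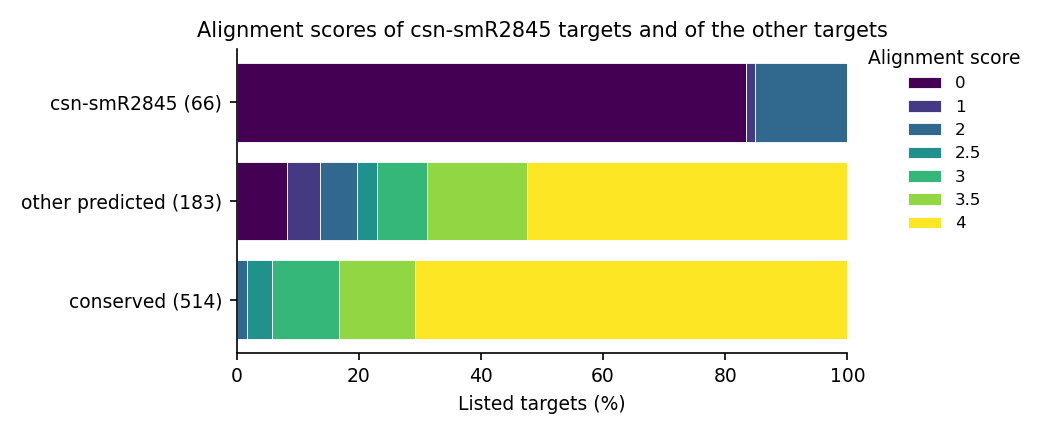
Share of listed targets (horizontal axis, in %) at each alignment score, from 0 for penalty-free pairing to 4, for the 66 targets of csn-smR2845, the 183 of the other predicted small RNAs and the 514 of the conserved families. A score of 0 covers 83.3% of the csn-smR2845 bar, 8.20% of the other predicted bar and none of the conserved bar.

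A score of 0 means that over these 17 nt csn-smR2845 is the reverse complement of the EST, so its sequence can be written from the strand opposite to that of the transcript. Pairing of this kind is the rule for small interfering RNAs, while miRNAs of plants commonly pair with some mismatches. The score alone does not give the origin of the small RNA. From which locus csn-smR2845 was transcribed was not tested, and no hairpin was listed for it in the table of the mixed library. Per the study, that list kept only part of its predicted hairpins, by stricter criteria. It also lacked 20 of the 40 predicted small RNAs with targets, so the absence of csn-smR2845 from it does not tell its origin.

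The 66 targets came from few EST number ranges and were mostly cut in a narrow run of positions. The share of these ranges among all entries was not counted, so they are not shown to be particular to csn-smR2845. Their numbers fell into 3 main ranges, with 36 ESTs numbered gi393, 25 numbered gi212 and 3 numbered gi366, and the other 2 were gi51452794 and gi51530274. In the gi212 range all 25 were cut within 12 positions, from 357 to 368 nt after the EST start, with 9 at 358, 7 at 364 and 5 at 368. In the gi393 range 29 of 36 were cut between 323 and 352, and the remaining 7 lay at 48 to 303. Cuts at 323 or later made up 58 of the 66 targets (87.9%). The 8 targets cut earlier all had a score of 0, and they had 2 reads in the cold and 12 in the control library. The first cut position was 48, in gi393740074, and the last was 368, in gi212378044, gi212378086, gi212378230, gi212378674 and gi212379856. Cleavage positions of the other predicted targets spread from 12 to 848, but these pool 39 small RNAs, which widens the range. Not one of the 66 ESTs was listed under another small RNA. This is not particular to csn-smR2845, since the 763 entries held 695 different ESTs and most were listed once.

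**Figure D2:**
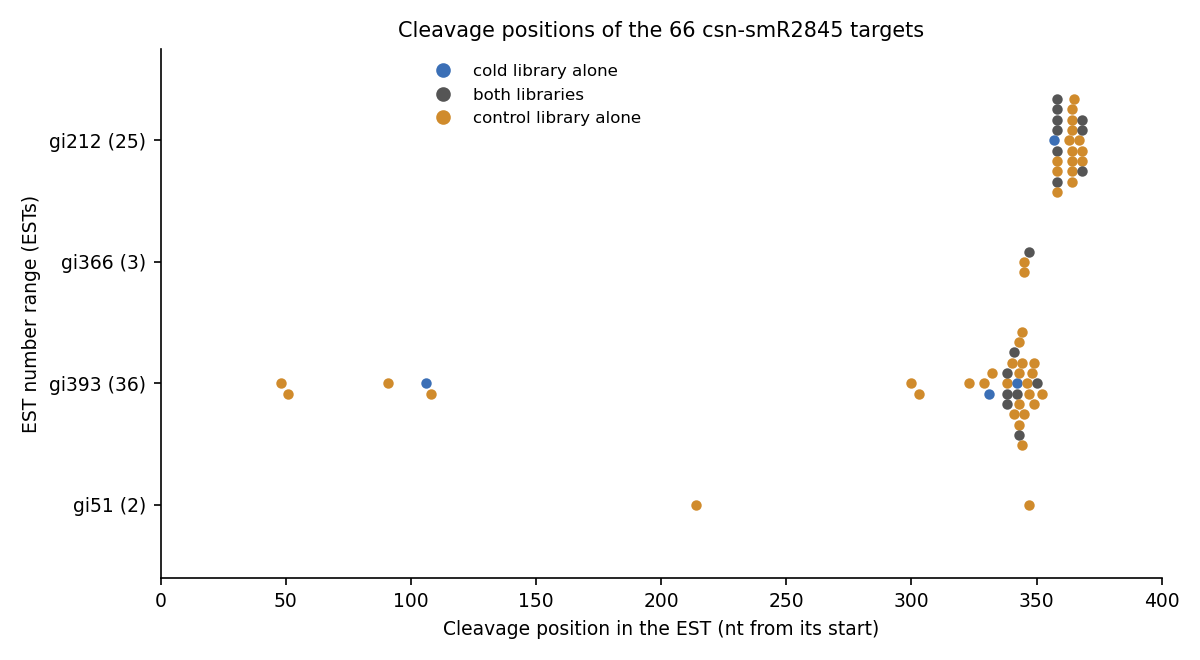
Cleavage position of each csn-smR2845 target (horizontal axis, nt from the EST start) in rows by EST number range, each point 1 EST, coloured by the library in which it had reads, and stacked vertically only to separate points. The 25 gi212 ESTs crowd at 357 to 368, 29 gi393 ESTs lie at 323 to 352, and 8 ESTs of the gi393 and gi51 rows lie before 323.

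Most of these ESTs had no known function. The annotation was "unknown protein" for 63 of the 66 (95.5%, 95% Wilson interval 87.5 to 98.4), against 119 of 183 other predicted targets (65.0%). The interval takes each EST as independent and can be too narrow. How many separate transcripts the 66 ESTs stand for was not tested. The 3 exceptions had 1 annotation each, all paired at a score of 0, and each had reads in the control library alone. gi366897091, a dormancy/auxin associated family protein, had 0 reads in the cold library and 2 in the control library at position 345. Members of this family are known as markers of resting buds, and their transcripts fall when auxin is applied or growth resumes. gi393389362, an AGC kinase, an enzyme class that relays growth and lipid signals, had 0 reads in the cold and 2 in the control library at position 341. gi393757034, a protein with an RWD domain, a fold that binds other proteins, had 0 and 1 reads at position 329.

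The dormancy/auxin annotation was not particular to csn-smR2845. Of 13 entries whose annotation held the words dormancy or auxin, 12 belonged to csn-miR172, with scores of 3.5 and cuts between 260 and 482. These 12 had 7 reads in the cold and 21 in the control library in all, between 0 and 1 in the cold library and between 1 and 3 in the control library at each EST. The exact test described below called 0 of the 13, against 2.88% of all sites. At 4 reads or fewer no site could have been called.

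The reads at csn-smR2845 sites were few in both libraries. Each EST had 0 to 3 reads in the cold library, with a median of 0, and 0 to 4 reads in the control library, with a median of 2. Of the 66 ESTs, 59 had 3 reads or fewer over both libraries and 7 had 4 or 5. Summed over all ESTs there were 36 reads in the cold library, 3.10% of its listed cleavage reads, and 118 in the control library, 4.00% of its own.

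**Figure D3:**
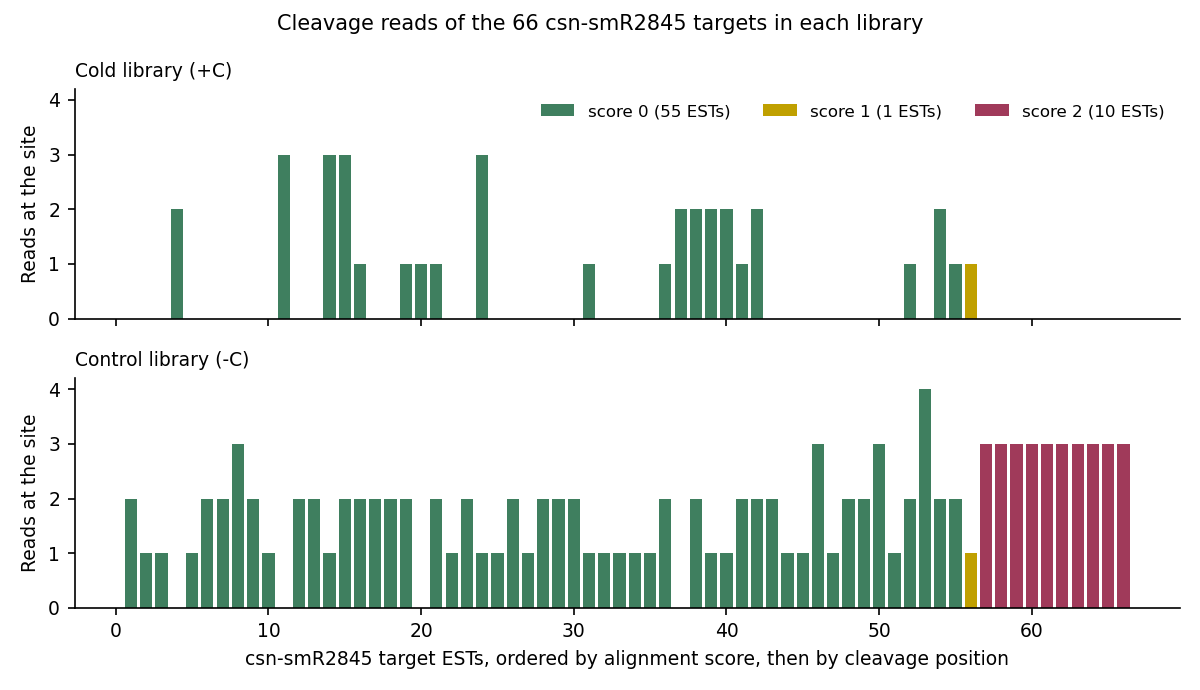
Reads at the cleavage site (vertical axis, raw reads) of each of the 66 csn-smR2845 targets in the cold library (upper panel) and the control library (lower panel), with ESTs ordered by alignment score and then by cleavage position. Cold bars reach 3 reads and are missing for most ESTs, control bars reach 4 reads, and the 10 ESTs with a score of 2 all stand at 3 reads in the control panel with no bar in the cold one.

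More of the targets had reads in the control library than in the cold one. In the cold library alone 4 of the 66 were listed (6.06%, Wilson interval 2.38 to 14.6), in both libraries 17 (25.8%, 16.7 to 37.4) and in the control library alone 45 (68.2%, 56.2 to 78.2). Over all 763 entries these shares were 22.5% in the cold library alone, 37.1% in both and 40.4% in the control library alone. For the other predicted targets they were 13.7%, 42.1% and 44.3%. The intervals take each EST as independent, and ESTs that share tags are not. With ESTs alike in score, annotation, reads and categories merged, the control-alone share was 47.4% (27.3 to 68.3). This merging went by the reads themselves, and the shares of the other entries are unmerged, so 47.4% cannot be set against them. The control library was the deeper one, and at 1 to 3 reads per site the lack of a read does not show that a transcript was uncut. In bulk leaf RNA, fewer cells of a type, less transcript per cell and less cutting cannot be told apart.

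**Figure D4:**
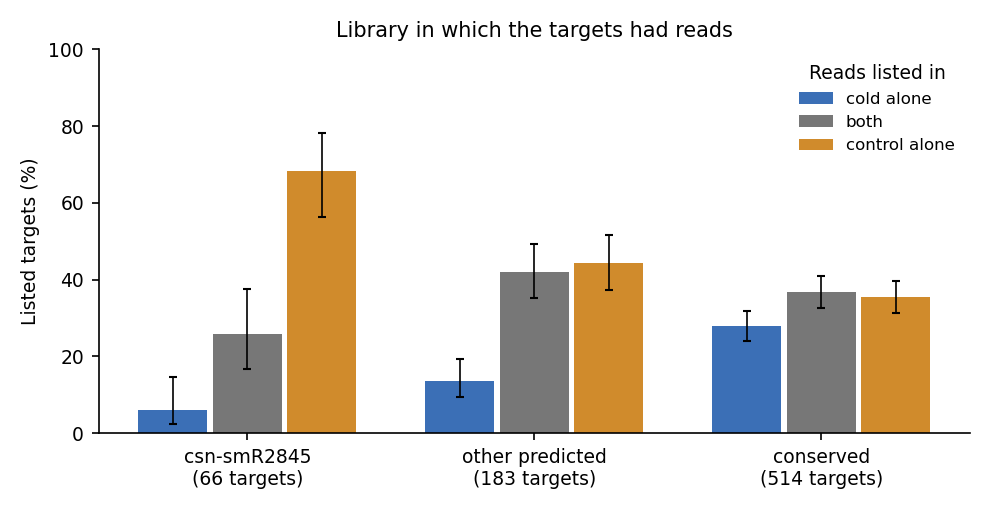
Share of targets (vertical axis, in %) with reads in the cold library alone, in both libraries and in the control library alone, for csn-smR2845, the other predicted small RNAs and the conserved families, with 95% Wilson intervals as error bars. The intervals take ESTs as independent and can be too narrow. For csn-smR2845 the control-alone bar stands at 68.2% and the cold-alone bar at 6.06%, against 44.3% and 13.7% for the other predicted targets.

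The 4 targets of the cold library alone all paired at a score of 0 and were all of unknown function. gi393753779, cut at position 331, had 3 reads in the cold and 0 in the control library. gi212380656, cut at 357, and gi393751675, cut at 106, had 2 and 0 reads each. gi393756835, cut at 342, had 1 and 0 reads. They were cut at 4 different positions. In all 4 the control category was blank and the cold values stood in shifted cells, so that they rest on how those cells were read.

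Of the 7 ESTs with 4 or 5 reads, 6 had reads in both libraries. gi393753631, cut at position 338, held the most reads, 3 in the cold and 2 in the control library. gi393744355, cut at the same position, and gi393756809, cut at 343, had 3 and 1 reads each. gi212378167, gi212379829 and gi212378674 had 2 and 2 reads each, the first pair at position 358 and the other EST at 368. gi212378230, cut at 368, was the exception, with 0 reads in the cold and 4 in the control library. Of these 7 ESTs, 3 thus had more cold reads, 3 had equal reads and 1 had more control reads, as raw reads and with the control library the deeper one.

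Among the ESTs with 3 reads in all, gi212378456 and gi212379346 had 2 in the cold and 1 in the control library, both at position 358. Another 7 had 1 and 2 reads, among them gi212378086 at position 368, gi212379540 at 358 and gi393751921 at 350. With 0 reads in the cold and 3 in the control library there were 13 ESTs, of which 3 paired at a score of 0. These 3 were gi212378581 at position 364, gi212380541 at 365 and gi393739039 at 303. The commonest pairs of values were lower still, with 16 ESTs at 0 and 2 reads and 15 at 0 and 1.

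The targets split by score in their reads. The 10 ESTs with a score of 2 were gi212378044, gi212378387, gi212378842, gi212379904, gi212380043, gi393740522, gi393741224, gi393746310, gi393749395 and gi51452794. Every one of them had 0 reads in the cold library and 3 reads in the control library, although they came from 3 number ranges and were cut at 7 positions between 343 and 368. The EST with a score of 1, gi212377971 at position 358, had 1 read in each library and lies just above the split, as the score takes no value between 0 and 1 here. The 55 ESTs with a score of 0 were mixed, with 4 in the cold library alone, 16 in both and 35 in the control library alone, and with 35 cold and 87 control reads.

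**Figure D5:**
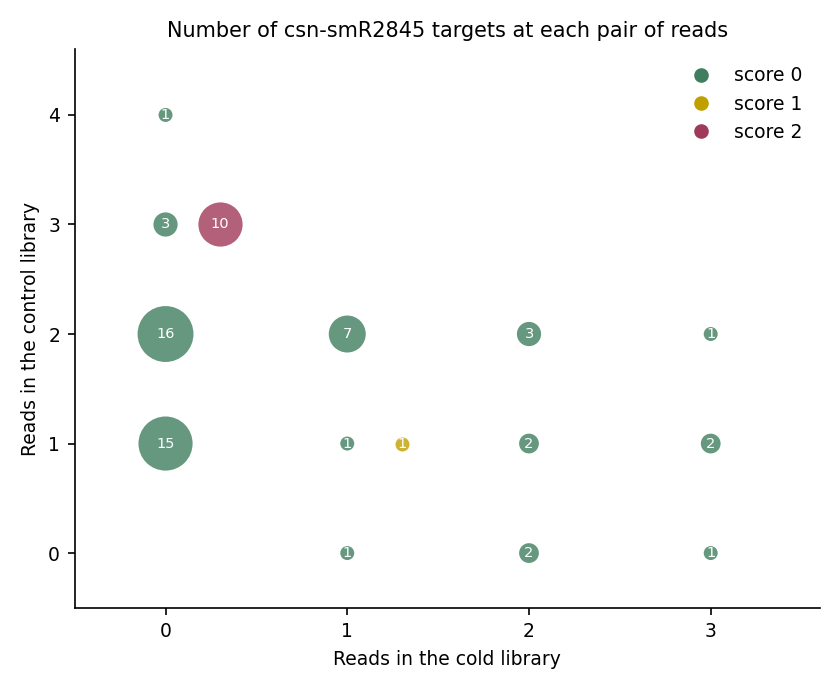
Number of csn-smR2845 targets (printed in each circle, whose area is in proportion) at each pair of reads in the cold library (horizontal axis) and the control library (vertical axis), coloured by alignment score, with scores 1 and 2 moved to the right of their true cold value to avoid overlap. The 10 targets with a score of 2 share 1 pair of values, 0 cold and 3 control reads, while those with a score of 0 occupy 13 pairs.

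The equal values raise the question of how many separate reads lay behind the 66 entries. A degradome tag starts at the cut and runs 20 to 21 nt downstream, and ESTs that are alike over this stretch match the same tags. How many tags were shared was not tested, and the 36 cold reads can stand for between 3 and 36 sequenced tags and the 118 control reads for between 4 and 118. When ESTs alike in their score, annotation, reads and categories were taken as 1, the 66 entries became 19, and the 10 ESTs with a score of 2 became 1. This merging used the reads themselves and ignored position, so it is no count of separate tags.

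ESTs cut at the same position mostly differed in their reads. Of 11 positions at which more than 1 EST was cut, 10 held ESTs that differed in their reads. At position 358, 6 of the 9 ESTs had reads in the cold library, and the 9 together had 10 cold and 17 control reads. At position 364, in other ESTs of the same range, 0 of 7 ESTs had cold reads, and together they had 0 cold and 15 control reads. Positions count from the start of each EST and the ESTs were not aligned, so the distance between these sites is not known. At position 368, 3 of 5 ESTs had cold reads, with 4 cold and 13 control reads in all. At position 338, in the gi393 range, 3 of 4 ESTs had cold reads, with 7 cold and 7 control reads in all. These values were not tested against each other, since ESTs of 1 range are not separate samples.

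CleaveLand categories rank a site by the other reads on its transcript. A site in category 0 is the highest of its transcript. Category 2 takes sites that exceed the transcript's median, category 3 those that do not, and category 4 those with a single read. csn-smR2845 sites were in category 2 at 11 of 21 targets in the cold library (52.4%, Wilson interval 32.4 to 71.7) and at 39 of 62 in the control library (62.9%, 50.5 to 73.8). The other predicted small RNAs had 36.3% and 34.2% of their targets there. Single-read sites of csn-smR2845 numbered 10 in the cold and 21 in the control library.

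Category 3 held 0 of the 21 cold and 0 of the 62 control targets of csn-smR2845, which allows shares of up to 14.3% and 4.84%. For the other predicted targets it held 5.88% in the cold and 23.4% in the control library. Category 0 was reached in the control library alone and by 2 ESTs, gi212378230 with 4 reads and gi212378581 with 3, both without cold reads. This was 3.23% of the 62 control targets, near the 3.55% of all entries listed in that library. In the cold library category 0 held 3.30% of all listed entries, too few to tell from 0 of 21. ESTs that share tags can share a category, in which case these intervals and limits are too narrow.

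No csn-smR2845 site passed a test of its own between the libraries. Fisher's exact test (two-sided, with Benjamini-Hochberg adjustment over all 763 sites) called 0 of the 66, against 2.88% of all sites. It thus found 0 lower in the cold, against 2.49% of all sites, and at an unadjusted p under 0.05 it also called 0, against 3.54%. The lowest value of this exact test was p = 0.0752 (adjusted p = 1), for gi393753779 with 3 cold and 0 control reads. gi212378230, with 0 cold and 4 control reads, had p = 0.143 by the same exact test, and each EST with a score of 2 had p = 0.268. The depth did not allow more. A site with 5 reads, the most at any csn-smR2845 target, could reach no lower than p = 0.0134 in the exact test, while the sites that were called in the data had unadjusted values of 4.55e-05 or lower. The test compares the 2 libraries and not the conditions.

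Summed over the 66 ESTs and divided by the library totals, the reads in the cold library were 0.418 times those in the control library, with an exact interval of 0.279 to 0.611 that covers counting error only and treats shared tags as separate. For the penalty-free ESTs alone it was 0.551 (0.361 to 0.824). The 11 ESTs with a higher score gave 1 cold and 31 control reads, a ratio of 0.0442 (0.00108 to 0.265), and whether the 10 with a score of 2 hold the same 3 control reads was not tested. Over all 763 entries the cold library also had fewer reads, 1161 against 2949 in the control library. Divided by these sums of the listed sites instead of the library totals, the ratio was 0.775 (0.518 to 1.13). A lower cold value was thus also found in the sum of all listed sites, but not in every small RNA. csn-miR408 alone gave 95 cold and 1182 control reads to these sums, while csn-miR396 had 120 and 99 and csn-smR5749 had 72 and 33. How far the 0.775 rests on csn-miR408 was not tested. By library totals the ratio was 0.438 within the gi212 range and 0.441 within the gi393 range.

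Of the 25 small RNAs with 5 or more targets, 5 had a larger share of targets in the control library alone than csn-smR2845. The 3 nearest to its share of 68.2% over the 2 libraries were csn-miR156 (66.7% of 15 targets), csn-smR2592 (63.6% of 11) and csn-smR2408 (75.0% of 8). csn-miR156, which is known to target SQUAMOSA promoter-binding factors in other plants, had 5 reads in the cold and 48 in the control library. csn-smR2592 had 20 and 66 reads, and csn-smR2408 had 23 and 17. None of the 3 had a target with a score of 0, so the likeness did not extend to the pairing.

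Penalty-free targets occurred for 3 other small RNAs, all of them predicted. csn-smR39 was the most similar, with a score of 0 at 9 of 10 targets, but its pairing spanned 22 nt, and its 10 targets had 0 reads in the cold and 18 in the control library. csn-smR7 had a score of 0 at 4 targets over 24 and 25 nt, and csn-smR1014 at 2 targets over 24 nt. All 15 of these entries lacked reads in the cold library and had 1 or 2 in the control library, and all 15 were annotated as unknown protein. csn-smR2845 was the 1 small RNA of the 4 whose penalty-free targets had any reads in the cold library, at 20 of 55 ESTs. With so few reads in the deeper control library, the lack of cold reads at the 15 entries does not show a difference between these small RNAs. csn-smR7 and csn-smR1014 also shared ESTs and cut positions, so fewer separate tags may lie behind the 15.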

How the data were processed

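Per the study's methods, degradome tags of 20 and 21 nt were mapped by the authors to *Arabidopsis thaliana* and tea mRNAs and ESTs. Perfect matches were kept, at most 5 mismatches to a small RNA were allowed, alignments with the cut at base 10 were retained, sites were classed with CleaveLand and transcripts were annotated by BlastX. The deposited reads are raw counts per site and library. The alignment score and the category are scores per the file headers. Where the control category was blank (4 csn-smR2845 entries, 172 of all), the next pair of cells was read as category and reads of the cold library. Adaptors and low-quality reads had been removed with the Illumina Pipeline. The aligner used within the CleaveLand step, and its version, were not given in the sources used here. Mature lengths of predicted miRNAs came from the table of the mixed small RNA library.

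Small RNA names were filled down and the 66 entries of csn-smR2845 were taken. Reads were divided by the sequenced signatures that the study states, and alternatives used distinct signatures, EST-aligned signatures or listed-site sums. Sites were tested with Fisher's exact test, with Benjamini-Hochberg adjustment over 763 sites and a threshold of 0.05 (SciPy 1.17.1, Python 3.11.15), which was tested on simulated data in 10 draws. Changes were simulated only at sites with more reads than any csn-smR2845 site had. The draws therefore do not show what the test can find at csn-smR2845 sites. Ratios have exact conditional and shares Wilson intervals at 95%, for counting error only, since PCR reads are not independent molecules. The Wilson intervals also take each EST as independent, and ESTs that share tags are not. The main run of positions was the one with most entries and no gap over 10 nt, set after seeing the data. A count of 0 was given a limit of 3 counts. Named ESTs were those with most reads (10, ties grouped), in category 0 or 1, in the cold library alone, with a score above 0, at the first or last position, or with an annotation. Other small RNAs named were those with a score of 0 and the 3 nearest in the share listed in the control library alone. The members and lists were chosen with earlier results of these data known. No gene names were looked up for ESTs, and conserved small RNA reads were not used.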

Additional observations from a re-analysis of the deposited data

How the results depend on the processing

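The count of 0 called csn-smR2845 sites was the same with distinct signatures, EST-aligned signatures and listed-site totals. It was also 0 when only the 107 sites with 5 or more reads were tested, which left 1 csn-smR2845 site. With at most 5 reads per site a call was out of reach in the main test, so this sameness tells little. The cold to control ratio of 0.418 stayed between 0.306 and 0.551 with the other stated totals, with a score of 0 alone, without the 4 entries of shifted cells, without single-read values and within each of the 2 large EST ranges, the last an alternative chosen after seeing the data. It moved to 0.775 with listed-site totals, to 0.839 after collapsing and to 0.0442 for scores above 0. Collapsing merged entries by their reads, so that common pairs of values shrank most by construction. The ratio turned to 2.05 for the most read EST alone, which has 3 cold and 2 control reads. The share of targets in the control library alone was 47.4% after collapsing and 90.9% for scores above 0, against 68.2%. The share with a score of 0 was 100% in the 3 annotated ESTs. No paired analysis was possible because each group held 1 library, and no replicate could be left out. Sites had at most 5 reads, which limits every statement on them.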

Other observations

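The penalty-free targets of csn-smR7 and csn-smR1014 lay on the same pair of ESTs, gi393388419 and gi393750821. Both small RNAs had a cut at position 370 of gi393388419 and at position 761 of gi393750821, with 0 reads in the cold and 2 in the control library at each.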
